A study of Oryza sativa with 18 samples.

Results

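The aleurone is the surface layer of the cereal endosperm. It arises from the same tissue as the starchy endosperm, but its cells stay alive in the mature grain, where they hold oil bodies, protein bodies and mineral-rich phytate. At germination gibberellin from the embryo triggers the aleurone to secrete alpha-amylases and other hydrolases that break down the reserves of the starchy endosperm. Open chromatin marks the stretches of DNA that a transposase, and by extension regulatory proteins, can reach, so a map of open regions in aleurone nuclei lists the candidate switches of this layer.

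The aleurone of the rice seed was represented by 2 of the 128 cell states in a single-nucleus ATAC-seq atlas, Eseed.Aleurone of early seed and Lseed.Aleurone of late seed. They were chosen by name, as the columns that the authors labelled Aleurone in a table of 128764 regions, each 501 bases wide. All plants were of the genotype Nipponbare and all tissue was fresh. Early seed and late seed had 2 libraries each, with 16000 sorted nuclei put into every library, and the sources used here do not give the ages behind these stage names. Each column pools both libraries of a stage. It therefore has no replicate and no SD, and no test between states was possible. The states are also the authors' clusters of the same nuclei, so a state set against the rest describes the clustering in part.

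Early seed held 13 other states and late seed 12. At each stage 3 of them were endosperm states, Central_endosperm, Dorsal_endosperm and Lateral_endosperm in early seed and Central_endosperm, Dorsal_endosperm and Dorsal_lateral_endopserm in late seed. The others were embryo states, nucellar epidermis, cross cells (early seed alone) and unnamed states. The values are log2 CPM, where CPM is a count scaled to a fixed total per column. Differences below are on that deposited log2 scale unless a CPM is named, so 1 is a doubling of CPM. Depth per column is not given, and the count of different values that a column takes (its distinct values) served as a substitute. It was 1383 for aleurone in early seed, where the 14 states ran from 475 to 1383, and 382 in late seed, where the 13 states ran from 135 to 562. The early aleurone column was thus the deepest of its stage by this measure.

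The label could not be checked against marker genes, because the available gene table is of the assembly ASM3414082v1 and its genes did not line up with the regions. Of the starts and ends of its protein-coding genes, 33.3% lay within 500 bases of a region centre, against 32.8% after a shift of 20000 bases. No gene is named for that reason, and regions are given by the coordinates of the authors' files, for which the sources used here name no genome build.

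Aleurone chromatin was closest to that of the endosperm states at both stages, with 1 exception in late seed. In early seed its Pearson correlation across regions was 0.907 with Dorsal_endosperm, 0.907 with Central_endosperm and 0.889 with Lateral_endosperm. The 10 states outside the endosperm ranged from 0.746 in Nucellar_epidermis, a maternal tissue, to 0.821 in Coleoptile, the sheath of the embryo's shoot, with a median of 0.784, so the values of endosperm and other states did not overlap. The 3 early endosperm columns correlated with each other at 0.913 to 0.953, above their values with aleurone. In late seed the correlation was 0.874 with Dorsal_endosperm and 0.873 with Dorsal_lateral_endopserm, but 0.771 with Central_endosperm, a column of 145 distinct values. The 9 late states outside the endosperm ranged from 0.673 in Coleorhiza, the sheath of the embryo's root, to 0.792 in Late_seed_UN1, an unnamed state of 164 distinct values that lay above Central_endosperm.

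Across the seed stages the aleurone columns correlated with each other at 0.852. For the early column that was the next value after its own endosperm states, and for the late column it came after the dorsal endosperm states of its stage. Among the 101 columns of other organs, the early column correlated best with Mesophyll of axillary bud (0.682) and worst with Crown_root_UN1 (0.472). The late column was highest with Mesophyll of leaf (0.667) and lowest with the same crown root state (0.466). The points of these correlations are regions that share libraries and the authors' normalization, so no p-value was attached.

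**Figure D1:**
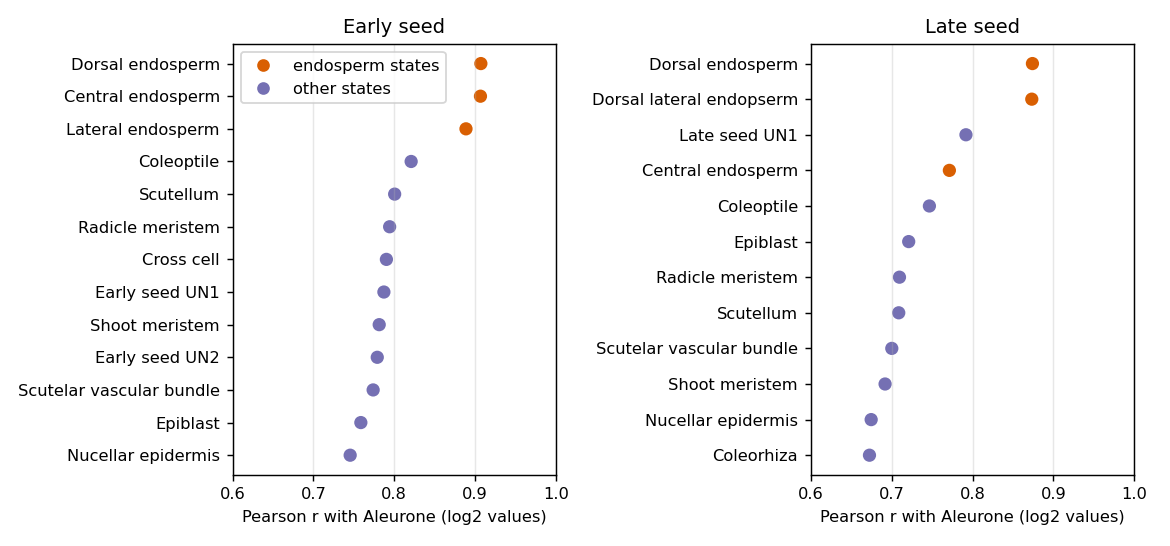
Pearson correlation across regions (x axis, log2 values) of the Aleurone column with every other state of early seed (left) and late seed (right); each point is 1 state (y axis), orange for endosperm and violet for other states. Endosperm states lie at 0.889 to 0.907 in early seed, to the right of every other state, while in late seed Central_endosperm at 0.771 lies to the left of Late_seed_UN1 at 0.792.

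Set against the mean of all other states of its stage, aleurone was among the states with the most differing regions at both stages. In early seed, 13030 of 127110 regions were higher in aleurone by at least 1 on the log2 scale (10.3%) and 14783 were lower (11.6%). Lateral_endosperm had more in both directions (16891 and 17755), Dorsal_endosperm had 13214 and 13218, and Central_endosperm had fewer (9307 and 6695). Scutellum, the embryo's absorptive organ, had 5751 and 2568 although its column held 1170 distinct values. In late seed, 14567 of 128473 regions were higher in aleurone (11.3%) and 16603 were lower (12.9%). Dorsal_endosperm had 10479 and 10898 there. The other late states ranged from 8630 higher regions in Coleoptile to 16118 in Central_endosperm, and aleurone had the highest count of lower regions of the 13 states. Each count covers the regions where some state of the stage reached a CPM of 1. On the log2(CPM + 1) scale the early counts were 7527 higher and 6790 lower and the late counts 9025 and 8096, so that higher regions outnumbered lower ones at both stages, the reverse of the deposited scale.

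Much of what set aleurone apart from the other seed states in early seed was shared with the endosperm. In 54.7% of the 13030 higher regions the endosperm mean was itself at least 1 above the states outside the endosperm, and in 31.2% aleurone was at least 1 above the endosperm mean. In late seed the shares were 43.5% and 44.7% of 14567 regions. Over all regions the endosperm mean was that far above in 12.6% in early and 10.3% in late seed. The endosperm mean was at least 1 below the states outside the endosperm in 57.2% of the 14783 early lower regions and in 35.5% of the 16603 late ones, against 13.6% and 10.8% of all regions. The share that lay at least 1 below endosperm was 23.3% in early and 47.3% in late seed. The stages differ in depth, with fewer distinct values in late aleurone and its endosperm states, and the part of depth in this shift was not tested.

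Against the endosperm states alone, aleurone was higher in 7216 regions in early seed (5.68%) and lower in 8361 (6.58%). In late seed it was higher in 11344 regions (8.83%) and lower in 12321 (9.59%). Taken column by column, early aleurone was higher than Central_endosperm in 8935 regions (7.03%), than Dorsal_endosperm in 9063 (7.13%) and than Lateral_endosperm in 10571 (8.32%). Late aleurone was higher than Dorsal_endosperm in 12705 regions (9.89%), than Dorsal_lateral_endopserm in 12842 (10.0%) and than the shallow Central_endosperm column in 19279 (15.0%). Lower regions outnumbered higher ones for each column on this scale. In early seed they numbered 9650 against Central_endosperm (7.59%), 9789 against Dorsal_endosperm (7.7%) and 12023 against Lateral_endosperm (9.46%). In late seed they numbered 19865 against Central_endosperm (15.5%), 12855 against Dorsal_endosperm (10.0%) and 12960 against Dorsal_lateral_endopserm (10.1%). Aleurone passed every endosperm column of the stage by at least 1 in 3205 regions in early seed (2.52%) and 4178 in late seed (3.25%). It lay at least 1 below every one of them in 3671 regions in early seed (2.89%) and 4700 in late seed (3.66%). On the log2(CPM + 1) scale the regions higher than the endosperm mean were 3177 in early and 5233 in late seed, and the lower ones 3962 and 5258.

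Regions higher in aleurone than in endosperm were, in the median, low in the rest of the seed as well. In early seed the 7216 regions had a median CPM of 5.29 in aleurone and of 1.91 to 2.08 in the endosperm columns, and the embryo and maternal states lay between 2.06 in Radicle_meristem and 2.59 in Nucellar_epidermis. Aleurone was at least 1 above the mean of the states outside the endosperm in 51.9% of them, against 12.97% of all regions, and at least 1 below it in 32 regions. In late seed the 11344 regions had a median of 5.32 in aleurone, of 1.70 to 2.19 in endosperm and of at most 2.48 in the named embryo and maternal states, whereas Late_seed_UN1 reached 3.02. The high aleurone level in these regions is fixed by the choice of regions, and the levels of the other states are given as a description.

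Regions lower in aleurone than in endosperm were in part also low against the states outside the endosperm, at both stages. In early seed the 8361 regions had a median CPM of 1.99 in aleurone, 6.46 in Lateral_endosperm, 5.44 in Dorsal_endosperm and 4.61 in Central_endosperm, and 2.09 to 3.32 in the states outside the endosperm. Aleurone was within 1 of the mean of those outside states in 61.8% of the regions and at least 1 below it in 36.1%, against 15.2% of all regions. In late seed the 12321 regions had a median of 1.28 in aleurone and 3.08 to 4.53 in endosperm, and aleurone lay at least 1 below the states outside the endosperm in 58.6%, against 15.5% of all regions. The low aleurone level in these regions is fixed by their choice. That choice by itself raises these shares above those of all regions, so they are given as a description.

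The differences of aleurone from the rest of the seed recurred between the stages, which share no column but come from 1 joint analysis by the authors. Of the 12973 early regions higher than the other states that could be followed at both stages, 8273 were also higher in late seed, which is 63.8% of the early and 57.4% of the late regions, against 11.4% of all regions being higher in late seed. Of 14775 lower regions, 7412 recurred (50.2% of the early and 45.4% of the late ones). Against endosperm alone, 3290 higher regions recurred (45.8% of the early and 29.6% of the late ones) and 3692 lower regions (44.3% and 30.6%). Over 126955 regions the 4 recurring sets made up 6.52%, 5.84%, 2.59% and 2.91%. The early and late differences correlated at 0.683 against the other states and at 0.505 against endosperm.

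Among the 10 labels found at both stages, aleurone had the highest correlation between its early and its late difference from the other states. Nucellar_epidermis followed at 0.642, and Scutelar_vascular_bundle was lowest at 0.157. The share of early higher regions that recurred did not stand out, at 63.8% against 22.6% to 70.5% in the other 9 labels. The share of lower regions was above the range of the others. It was 50.2% of the early ones in aleurone and 16.1% to 36.9% in the others, and 45.4% of the late ones against 7.20% to 34.5%. Aleurone was also among the deeper columns at both stages, and a label with more lower regions at each stage has more that can recur, so these values describe the columns without a test of the difference.

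**Figure D2:**
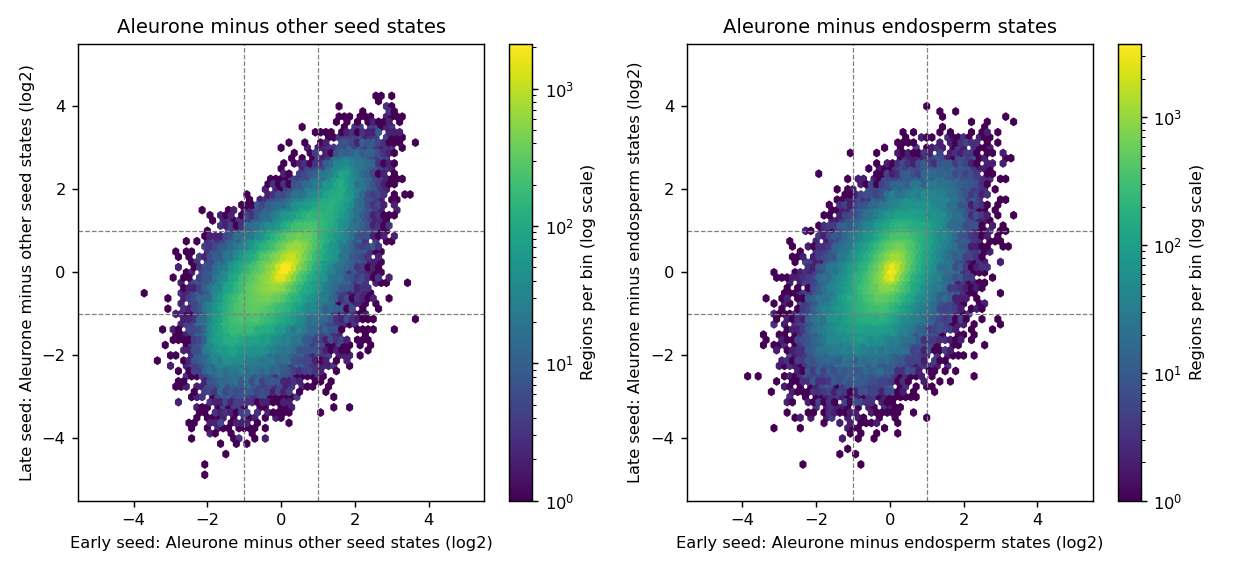
Difference of the Aleurone column from the mean of the other seed states (left) and of the endosperm states (right), on the log2 scale, in early seed (x axis) and late seed (y axis); colour gives the number of regions per bin on a log scale and dashed lines mark differences of 1 and -1. The cloud runs along the diagonal in both panels, with correlations of 0.683 and 0.505 across 126955 regions.

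A core of 1875 regions was higher in aleurone by at least 1 in all 4 contrasts, against the other states and against endosperm at both stages, and 1075 regions were lower in all 4. These are 1.48% and 0.847% of the 126955 regions. On the log2(CPM + 1) scale, which shrinks differences between low values, they were 955 and 223, and where some state of the stage had to reach a CPM of 5 the higher core was 1203. The higher core had a median CPM of 8.25 in early aleurone (interquartile range 4.98 to 12.3) and 8.15 in late aleurone (4.52 to 12.9). In 986 of its regions (52.6%) both aleurone columns exceeded every other seed column. In 485 (25.9%) they were the highest columns of all 128, and in 823 (43.9%) the highest column was one of them. The choice of regions by itself places aleurone high among the columns. The same counts over all regions were not taken, so these ranks are given as a description.

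Outside aleurone the higher core had a low median in every state, but many of its regions reached a CPM of 5 in some other state. No state other than aleurone had a median CPM above 2.85 in it, the value of Dorsal_endosperm in early seed. The highest states of other organs were Stomatal_precursor of seedling (2.71), Panicle_UN2 (2.63), Epidermis_meristem of panicle (2.51) and Lodicule of panicle (2.50), and the lowest was Companion_cell of seedling (1.44). Over all regions the columns of an organ had a typical median of 4.59 to 4.66. Region by region, 256 (13.7%) reached a CPM of 5 in no column other than aleurone, 679 (36.2%) did so in 1 to 10 other columns, and 940 (50.1%) in more than 10. These other columns include the other seed states. The highest of them lay in late seed in 306 regions (16.3%) and in early seed in 230 (12.3%). The same counts over all regions were not taken, so these are given as a description.

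The lower core was low in aleurone by the choice of its regions. In a typical column of every organ it also lay below the level of regions in general. Its median CPM was 1.55 in early and 1.40 in late aleurone, against column medians of 2.97 to 6.07 in the other early seed states and 2.59 to 7.36 in the other late seed states. Outside the seed it was highest in the root vascular states Developing_metaxylem of seminal root (5.95) and Procambial_meristem of crown root (5.69) and of seminal root (5.66). It was lowest in Stomatal_precursor (1.95) and Epidermis (2.09) of early seedling. Over the columns of an organ its typical median ran from 2.55 in panicle to 3.82 in crown root. It was 4.37 in early seed and 4.43 in late seed without aleurone. All of these are below the 4.59 to 4.66 of all regions. In 302 of its regions (28.1%) both aleurone columns lay below every other seed column, and in 33 (3.07%) they were the lowest of all 128. The choice of regions by itself places aleurone low, and the same counts over all regions were not taken.

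**Figure D3:**
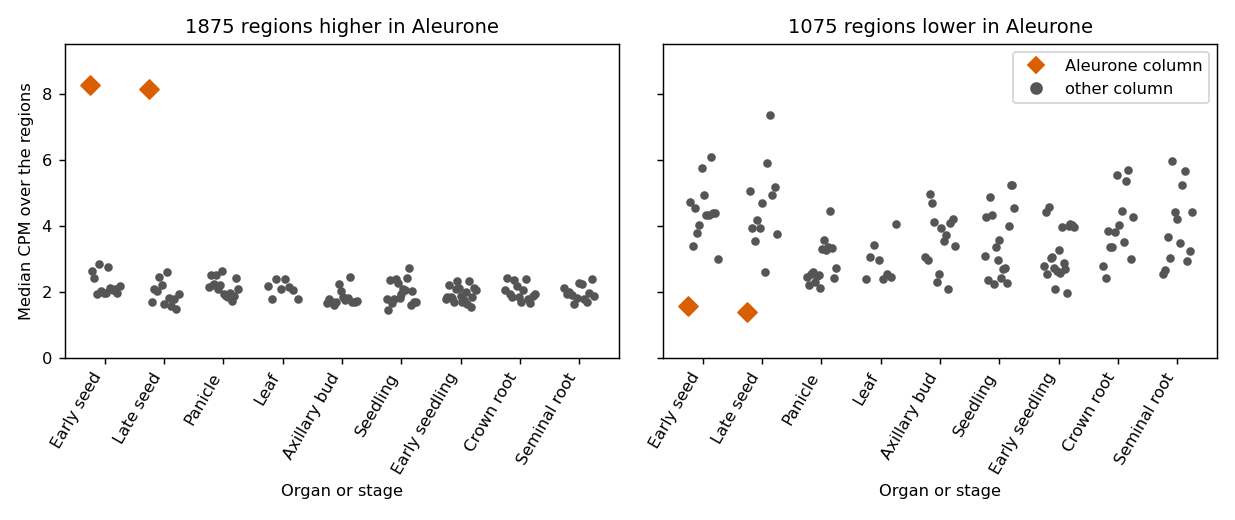
Median CPM (y axis) over the 1875 regions higher in Aleurone (left) and the 1075 regions lower in Aleurone (right) in every column of the atlas, grouped by organ or stage (x axis); orange diamonds are the Aleurone columns and grey points all other states. On the left the Aleurone columns sit at 8.25 and 8.15 and all other columns at or below 2.85. On the right the Aleurone columns sit at 1.55 and 1.40. The regions were chosen by their aleurone differences, which fixes the direction of the Aleurone columns against the other seed states.

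The 10 regions of the higher core with the widest margin, among 1145 with an aleurone CPM of at least 5 at both stages, exceeded both references by 2.65 to 3.29 in their weakest contrast. The widest margin was that of chr10:9972356-9972856. Its CPM was 10.9 in early and 12.7 in late aleurone. In early seed it was 0.836 in Central_endosperm, 0.951 in Dorsal_endosperm and 1.37 in Lateral_endosperm, and in late seed 0.478 in Central_endosperm, 1.62 in Dorsal_endosperm and 1.39 in Dorsal_lateral_endopserm. The states outside the endosperm, unnamed ones included, ran from 0.425 to 2.71 in early seed (median 1.14) and from 0.432 to 1.82 in late seed (median 1.09), where the highest was Late_seed_UN1. Neither stage overlapped with aleurone, and no column of another organ exceeded 1.84. The authors' list names it for both aleurone states and no other.

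The region chr7:4913060-4913560 came next, with a CPM of 9.57 in early and 8.15 in late aleurone. Its endosperm columns read 1.62, 1.09 and 1.01 in Central_endosperm, Dorsal_endosperm and Lateral_endosperm of early seed. In late seed they read 0.257, 1.36 and 1.30 in Central_endosperm, Dorsal_endosperm and Dorsal_lateral_endopserm. The states outside the endosperm stayed at or below 1.55 in early and 1.91 in late seed, so aleurone stood alone at both stages. Leaf_UN2 was the highest column of another organ at 3.69.

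At some of these regions the level in aleurone differed between the stages by more than a doubling. The region chr6:27329018-27329518 had a CPM of 6.24 in early and 15.99 in late aleurone, while its late endosperm columns lay between 1.39 and 2.57. The region chr2:9877049-9877549 had 18.0 in early and 5.17 in late aleurone, and chr11:7704497-7704997 had 14.5 and 6.13. The median of the other seed states moved the same way at each of them. It went from 0.875 in early to 1.045 in late seed at the chromosome 6 region. At the chromosome 2 region it went from 2.09 to 0.711, and at the chromosome 11 region from 1.72 to 0.431. In the 3 regions the late aleurone value still exceeded every other late seed state, whose highest values were 2.57, 1.27 and 1.30. The most open of the 10 in early seed were chr4:7005494-7005994, at 19.3 in early and 15.3 in late aleurone, and chr8:22498282-22498782, at 19.2 and 13.04. The latter reached at most 2.37 in any column of another organ, the former 6.16 in Seedling_UN4.

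The remaining 3 of the 10 were chr4:995923-996423 (6.202 in early and 7.36 in late aleurone), chr5:1268644-1269144 (5.64 and 7.23), and chr1:16140967-16141467 (9.35 and 7.98), each with its highest value elsewhere in the seed at or below 2.90. In other organs they reached 3.94 in Epidermis of leaf, 5.85 in Guard_mother_cell of early seedling and 2.67 in Developing_phloem of early seedling. At the chromosome 5 region that value exceeded early aleurone. Of all 10 regions, the list names 7 for both aleurone states alone and 2 for Eseed.Aleurone alone, and it does not hold the chromosome 6 region.

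The 6 regions chosen at the other end, among 460 of the lower core whose mean over the other states was at least 5 CPM at both stages, were all marked broadly accessible in the authors' list. The region chr2:32541069-32541569 had a CPM of 1.30 in early and 1.14 in late aleurone. Its early endosperm columns read 10.7 in Central_endosperm, 5.54 in Dorsal_endosperm and 8.73 in Lateral_endosperm. Its late endosperm columns read 12.1 in Central_endosperm, 6.74 in Dorsal_endosperm and 6.54 in Dorsal_lateral_endopserm. Radicle_meristem, the root tip of the embryo, was the highest state at both stages with 11.3 and 16.9, and aleurone was below every other seed state.

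The chromosome 6 region chr6:19855036-19855536 was a seed region with little signal elsewhere. Aleurone had 2.82 in early and 0.673 in late seed, while Scutellum had 18.2 and 15.7, and no column of another organ exceeded 2.20. The opposite case was chr8:25582267-25582767, with 3.19 and 2.18 in aleurone and up to 35.1 outside the seed, in the panicle state SBM. The other 3 were chr11:28795081-28795581 (1.90 in early and 1.14 in late aleurone), chr1:4171762-4172262 (1.65 and 3.72) and chr2:27101841-27102341 (4.04 and 3.89). At these 3 the median of the other seed states was 6.01, 8.46 and 13.1 in early seed and 6.74, 15.5 and 16.7 in late seed.

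**Figure D4:**
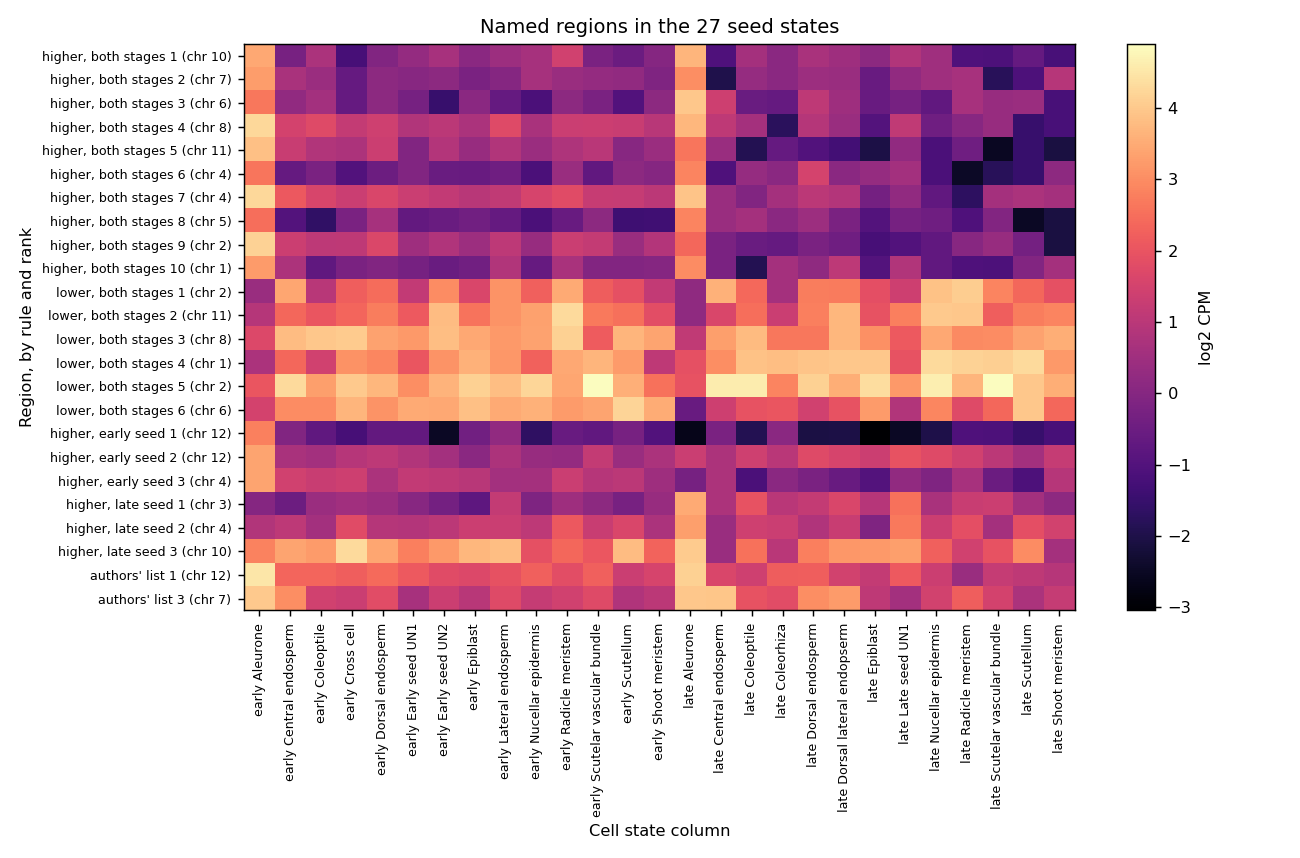
log2 CPM (colour) of the named regions (rows, by the rule that chose them and their rank) in the 27 seed states (columns, early seed then late seed). The first 10 rows are bright in the Aleurone columns, at 5.64 to 19.3 CPM in early and 5.17 to 15.99 in late seed, and dark elsewhere. The next 6 rows are dark in the Aleurone columns, with 1.30 to 4.04 CPM in early and 0.673 to 3.89 in late seed. Most other states are brighter there, but some are nearly as dark. In the first of these rows late Coleorhiza has 1.53 against 1.14 in late aleurone.

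Regions of both cores had another member of the core nearby more often than regions in general. Within 10000 bases of another member were 629 of the 1875 regions of the higher core (33.6%), and of all regions 9.66% had a member that near. For the lower core the shares were 24.4% (262 of 1075) and 7.58%. Places dense in the higher core were picked as the 100000-base windows with the most members and shortened to their first and last member, so their flanks hold few members by construction. The densest place, chosen after its values were seen, was chr10:9944597-9993249, a stretch of 48.7 kb with 29 regions. Of these, 20 belonged to the higher core, 23 were higher than the other states at both stages and 22 were higher than endosperm at both stages. Its core regions had a CPM of 3.86 to 29.0 in early aleurone (median 13.3) and 8.46 to 27.6 in late aleurone (median 14.9), with an endosperm median of 4.17 and 2.72. The stretch holds chr10:9972356-9972856, the region of the widest margin.

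A further 4 places were chosen in the same way. On chromosome 4, chr4:16600758-16633657 held 9 regions, 8 of them in the core, with a median CPM of 15.6 in early and 9.60 in late aleurone. On chromosome 6, chr6:27317834-27379180 held 21 regions with 8 in the core, at a median of 5.48 in early and 13.4 in late aleurone. On chromosome 8, chr8:22429215-22501737 held 40 regions with 10 in the core and chr8:28319608-28367572 held 21 with 8. Chromosomes 10 and 12 had the highest share of their regions in the higher core, 2.09% and 2.04%, and the lowest shares in the lower core, 0.543% and 0.513%. Chromosome 3 had the lowest share in the higher core, 1.12%, and the highest in the lower core, 1.004%.

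**Figure D5:**
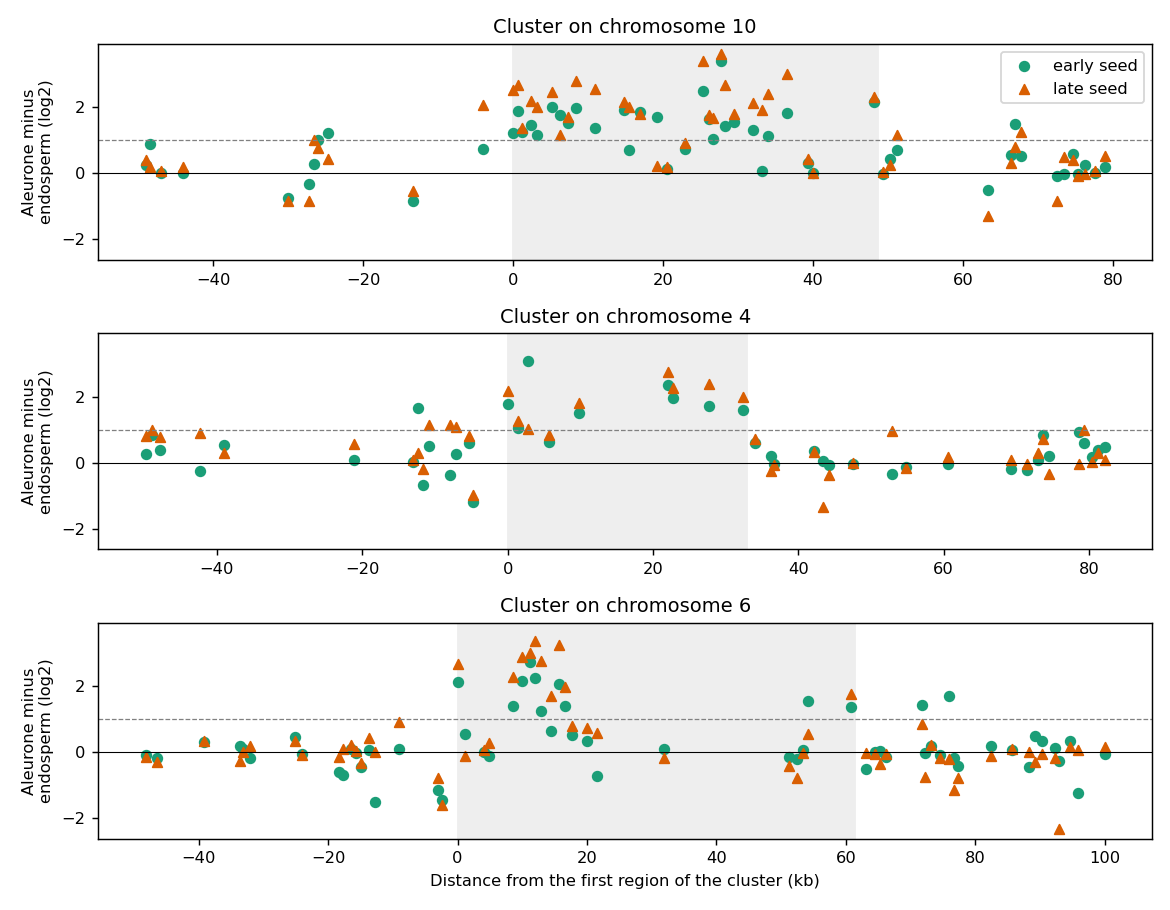
Aleurone minus the mean of the endosperm states on the log2 scale (y axis) for each region along 3 of the stretches and their flanks, against the distance in kb from the first region of the stretch (x axis); circles are early seed, triangles late seed, the grey band is the stretch and the dashed line a difference of 1. On chromosome 10, 22 of the 29 regions in the band lie above the line at both stages.

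Neighbouring regions higher or lower in aleurone also formed runs, as they did for other labels. The longest run of consecutive regions that were all higher in aleurone than in the other states at both stages was 14, at chr10:9940555-9962007, followed by 13 at chr8:22488716-22506430. Against endosperm the longest was 11, at chr10:9944597-9959869. Aleurone had 63 runs of 5 or more higher regions, and the other 9 labels had 6 to 54, with a longest run of 11. Aleurone also had the most higher regions, 8273 against at most 7821, and 40.4% of them lay in runs of 2 or more, below Radicle_meristem (46.8%) and Epiblast (42.1%). For lower regions aleurone had 44 such runs and the other labels at most 3. The number of regions that can form runs differed as well, with 7412 lower regions in aleurone and at most 3653, in Dorsal_endosperm, among the others. The part of the number of regions in either count of runs was not tested.

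Between early and late seed, aleurone was higher by at least 1 in 13595 of 126955 regions (10.7%) and lower in 14496 (11.4%). Each of the other 9 labels found at both stages had 11115 to 21364 higher regions, so aleurone was within their range. Of its higher regions, 39.99% had the same sign in all 9 other labels, against 13.2% of all regions. Of its lower regions, 29.7% did, against 12.3%. The mean of the other labels was within 0.5 of 0 in 27.1% of the higher and 34.2% of the lower regions. Where some state had to reach a CPM of 5, the counts were 4931 higher and 8372 lower, and on the log2(CPM + 1) scale 6247 and 7076.

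Some regions stood out in aleurone at 1 stage and not at the other. Among 126955 regions followed at both stages, 452 were higher by at least 1 in both early and at or below 0 in both late contrasts. Of these, 108 had at least 5 CPM in early aleurone. The widest was chr12:18534001-18534501, with a CPM of 7.04 in early and 0.160 in late aleurone. Its early endosperm columns read 0.935 in Central_endosperm, 0.635 in Dorsal_endosperm and 1.17 in Lateral_endosperm, and no late state exceeded 1.09. It was low in other organs too, with 1.70 as the highest value. Next came chr12:2926786-2927286 (10.5 in early and 2.49 in late aleurone), which reached 15.8 in Leaf_UN2, and chr4:1739124-1739624 (10.4 and 0.816), which reached 8.18 in Stomatal_precursor of seedling.

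The reverse pattern was found in 282 of the 126955 regions, 88 of them with at least 5 CPM in late aleurone. The widest was chr3:35430343-35430843, with 0.998 in early and 11.3 in late aleurone. Its late endosperm columns read 1.70 in Central_endosperm, 2.30 in Dorsal_endosperm and 3.08 in Dorsal_lateral_endopserm, and Late_seed_UN1 was next to aleurone with 5.86. The same unnamed state was the next highest in chr4:28689227-28689727, at 6.36 against 9.87 in late aleurone and 1.81 in early aleurone, and in chr10:21759785-21760285, at 9.76 against 16.4 and 7.17. The last of these was open across the early seed, where Cross_cell had 19.7. Both exceeded late aleurone in crown root, with 27.5 in Atrichoblast at the chromosome 4 region and 21.2 in Cortex at the chromosome 10 region, while the chromosome 3 region reached 4.66 in Vascular_cell of leaf.

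The authors' list, which holds 120048 regions, names early aleurone for 7030 of them (5.86%) and late aleurone for 6136 (5.11%). Both are named for 4062, which is 57.8% of the early and 66.2% of the late regions. Of the 9104 regions that name either, 7084 (77.8%) also name an endosperm state, and 3051 (33.5%) name a state outside the seed. The list-wide shares naming an endosperm state or a state outside the seed were not taken. The 77.8% and 33.5% therefore cannot be read as traits of aleurone regions. Aleurone alone is named for 575 regions, of which 216 name the early state, 166 the late state and 193 both. A further 419 regions name both aleurone states, all 6 endosperm states and nothing else.

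The list and the core overlapped in part, and both derive from the same nuclei. Of the 1875 regions of the higher core, 873 (46.6%) name an aleurone state in the list and 589 (31.4%) are marked broadly accessible. Of the 1075 regions of the lower core, 678 (63.1%) are marked broadly accessible and 0 name an aleurone state. Over the whole list, 9104 of 120048 regions (7.58%) name an aleurone state. The share marked broadly accessible over the whole list was not taken, so the 31.4% and 63.1% cannot be read as traits of the cores. Of the 193 regions listed for both aleurone states alone, 145 (75.1%) belong to the higher core. The most open of them was chr12:17582634-17583134, with a CPM of 22.8 in early and 17.6 in late aleurone. Its endosperm columns lay between 3.80 and 5.44 in early and between 2.80 and 4.69 in late seed, and the highest value in another organ was 5.11, in Bulliform of leaf.

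A listed region could also be open in endosperm. At chr7:20750462-20750962 aleurone had 16.2 in early and 15.8 in late seed, and late Central_endosperm had 15.7, so the difference from the late endosperm mean was 0.57. Its Dorsal_endosperm column read 8.08 and its Dorsal_lateral_endopserm column 9.43 in late seed. The other 2 of the 4 listed regions with the highest aleurone values were chr4:7005494-7005994 and chr8:22498282-22498782, described above among the regions of the widest margin.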

How the data were processed

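Nuclei of rice seed were assayed by single-nucleus ATAC-seq with a 10x Genomics kit, per the labels' protocols, and all samples were integrated in 1 analysis. BWA and MACS2 are named in the submitters' processing notes without versions. The sources used here do not give the build, any read shift for the transposase, the treatment of doublets or how states were named. The authors deposited log2 values of CPM per region and cell state, pooled over libraries, and a list of regions with the states they are specific to. The values of all columns had nearly the same distribution and total (1007548 to 1008613 CPM). The sources used here do not give the step that led to the shared distribution. Its part in low values and in the counts of higher and lower regions was not tested.

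From these, differences were taken between the Aleurone column and the mean of the other columns, or of the endosperm columns, of its stage, over regions where some state of that stage reached a CPM of 1. A difference of 1 on the log2 scale was the threshold for every count. The columns hold no replicates, so leaving one out, a spread and a test were not possible. CPM is 2 raised to the deposited log2 value. Starts are counted from 1. The number of distinct values per column stood in for depth, which is unknown, so no counting interval is given.

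Regions were named by rule. The 10 highest by their smallest difference came from regions higher in all 4 contrasts with an aleurone CPM of at least 5 at both stages, and the 6 lowest from regions lower in all 4 whose other states had a mean of at least 5. A further 3 and 3 were high at 1 stage and at or below 0 at the other, and 4 had the highest mean aleurone value among regions listed for both aleurone states alone. Members, lists and rules were chosen with earlier results of these data known. Gene lists and marker genes were planned and are not analysed here, since the regions could not be tied to genes. The alternatives were log2(CPM + 1), log2(CPM + 0.1), no filter, a filter at a CPM of 5, the median of the other columns, and references without unnamed states or without columns of fewer than 200 distinct values. The counting step was run on simulated data with a raise well above the threshold and little noise. That run checks the code and lends no support to the counts. Python 3.11.15, numpy 2.4.6 and pandas 2.3.3 were used.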

Additional observations from a re-analysis of the deposited data

Results flagged for a closer look

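A region was picked out where aleurone lay above its reference at one stage and below it at the other, and in each of the 4 cases below the region with the widest such pair is given. The difference between the stages was not tested, since each stage has 1 aleurone column. Against the other seed states, 281 regions were higher in early and lower in late aleurone by at least 1, and 48 the other way. They made up 2.17% of the early higher and 0.325% of the early lower regions. Of all regions, 12.85% were lower and 11.35% higher in late seed. The widest of the opposite regions were chr9:11965168-11965668, with differences of 2.13 in early and -1.96 in late seed, and chr3:6140030-6140530, with -2.21 and 1.49. Against endosperm, 262 regions were higher in early and lower in late aleurone, and 138 the other way. The widest were chr2:27017869-27018369, with 2.25 in early and -2.45 in late seed, and chr10:21767520-21768020, with -1.90 and 2.42. All 4 were weak regions, with an aleurone CPM of 2.14 and 0.132, 0.165 and 1.86, 2.46 and 0.160, and 0.146 and 1.40 in early and late seed.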

How the results depend on the processing

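On the log2(CPM + 1) scale every count of regions fell outside 1.5 times its main value. Against the other states it gave 7527 higher and 6790 lower regions in early seed and 9025 and 8096 in late seed. There higher regions outnumbered lower ones, the reverse of the deposited scale. Against endosperm it gave 3177 and 3962 in early and 5233 and 5258 in late seed, and in all 4 contrasts 955 and 223. Late minus early aleurone gave 6247 higher and 7076 lower regions, and the mean correlation of early aleurone with endosperm was 0.913 in place of 0.901. Where some state had to reach a CPM of 5, 4628 regions were higher than endosperm in early seed, 1203 were higher in all 4 contrasts, 4931 were higher and 8372 lower in late than in early aleurone, and the early correlation was 0.876. The other 80 values stayed within 1.5 times the main count or, for correlations, within the spread of the endosperm columns, and all 182 values of the named regions kept their direction and their side of the threshold. No paired analysis was possible because each column pools the libraries of its stage and carries no replicate number, and no replicate could be left out for the same reason. The gene lists and their wider window were not run. Depth per column is unknown, and late Central_endosperm (145 distinct values) and Late_seed_UN1 (164) are shallow by the substitute used.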

Other observations

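Late_seed_UN1, a state of late seed with no cell type name, shared regions with aleurone in the authors' list. It is named for 2590 regions, of which 1210 (46.7%) also name late aleurone and 912 (35.2%) also name early aleurone. Over the whole list, late aleurone is named for 5.11% and early aleurone for 5.86%. Late aleurone is named for more of each late endosperm list, from 51.4% in Central_endosperm to 60.01% in Dorsal_endosperm. The share was 25.35% in late Coleoptile and 13.83% in late Nucellar_epidermis. The regions that Late_seed_UN1 shares with endosperm states were not counted, so this overlap cannot be read as specific to aleurone. In the 11344 regions higher in late aleurone than in endosperm the median CPM of Late_seed_UN1 was 3.02, against 2.12 to 2.48 in the other late states outside the endosperm. In the 12321 regions lower than endosperm its median was 2.19, the lowest of the late states after aleurone. The densest place of the lower core was chr8:26728782-26762393, with 9 of its regions, followed by chr4:31020047-31095279 with 8.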
